A study of Homo sapiens with 22 samples.

Results

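Cancer-testis antigens and listed germ-line genes were followed through treatment of 6 B-cell lymphoma lines with a pair of drugs. These were 5-aza-2'-deoxycytidine (5-aza-dC), which blocks DNA methylation, and trichostatin A (TSA), which blocks the removal of acetyl groups from histones. The members were the probe sets of an Affymetrix human array annotated to a single gene symbol that begins with MAGEA, MAGEB, MAGEC, GAGE, PAGE, XAGE, SSX, CTAG or SPANX, together with 13 germ-line genes listed by name. A probe set is a group of short oligonucleotides on the array that read 1 transcript. This gave 46 probe sets of 34 genes, out of 19065 probe sets of 11963 genes with a single symbol. Of the 13 listed genes 9 had such a probe set, namely DAZL, DDX4, SYCP1, TEX14, BRDT, DPPA4, PRAME, LDHC and ADAM2. SYCP3, STK31, MAEL and DPPA2 had none. No symbol began with XAGE. The rule also took in 6 probe sets of SSX2IP by their letters, although SSX2IP encodes a protein that binds SSX2 and is not a member of the SSX family, and likewise CTAGE1 and the pseudogene CTAGE11P. RefSeq places 22 of the 34 genes on the X chromosome and 12 on autosomes.

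Cancer-testis antigens are proteins made by the germ cells of the testis, silent in most adult tissues, and found again in some tumours, where they can be seen by T cells. Many of their promoters are methylated in somatic cells, and inhibitors of DNA methylation are a known way to switch MAGEA genes on in cultured cells. Many families lie on the X chromosome in clusters of near-identical copies, so one probe can read several genes, and Affymetrix marks probe sets that may do so with the ending _x_at.

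Burkitt lymphoma was the origin of Daudi, Namalwa and Raji. Diffuse large B-cell lymphoma (DLBCL) was the origin of HT, SU-DHL4 and SU-DHL6. Each was measured untreated and treated, with 2 arrays a group, except HT with 1 array untreated and 1 treated, so 11 untreated arrays were set against 11 treated ones. Treated cells had 5-aza-dC for 6 days, joined by TSA at 625 nM during the final 24 h. The titles give 5 µM 5-aza-dC and the protocol 3 µM, and there was no arm with either drug alone. The series design text says that data of the treated Burkitt arrays had been published before, and whether they were run together with the untreated arrays of those 3 lines is not stated.

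Values are log2 expression from robust multi-array averaging (RMA), and differences are treated minus untreated on that scale. The deposited values carry no detection call. The dim end of an array was therefore taken as its 10th percentile, which lay between 4.68 and 4.76 on untreated arrays and between 4.74 and 4.97 on treated ones. A line's 10th percentile rose with treatment by 0.24 in SU-DHL4, 0.15 in SU-DHL6 and 0.10 in HT, and by 0.03 to 0.04 in the Burkitt lines. Both treated arrays of SU-DHL4 and treated array 2 of SU-DHL6 stood apart by a narrow spread of values, with interquartile ranges of 2.03, 1.96 and 1.99 against 2.31 to 2.59 on untreated arrays. On that SU-DHL6 array the 3' control probe set of ACTB exceeded the 5' one by 2.08, against at most 0.07 on untreated arrays. The B-cell markers had mean levels of 10.4 to 10.9 on untreated arrays and 7.72 to 9.51 on treated arrays over 5 genes. Of their 10 probe sets 8 were called lower over the lines (80%), against 16.7% of all probe sets. In these bulk samples, fewer cells transcribing a gene and less RNA per cell cannot be told apart.

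Over the 6 lines, members of the MAGEA and SSX families, MAGEB2, CTAG2, PRAME, DAZL and TEX14 rose with treatment, and no member fell past the test. Limma on the line means called 14 of the 46 probe sets higher (30.4%), against a background of 15.6% higher among all 22215 probe sets. Limma called 0 members lower, against 16.7% of all probe sets. At an unadjusted p under 0.05 it found 1 lower, LDHC (2.17% of members), against 20.3% of all probe sets. It found 20 higher at that threshold (43.5%), against 26.1%. The median difference of the members was 0.25, and that of all probe sets 0.10. The share of members with a difference above 0 in all 6 lines was 37%, against 22.9% of all probe sets. The 14 calls came from 12 genes: MAGEA1, MAGEA4, MAGEA6, MAGEA10, MAGEA12, MAGEB2, SSX1, SSX3 with 3 probe sets, CTAG2, PRAME, DAZL and TEX14. With the Burkitt lines alone 6 members were called, and with the DLBCL lines alone 3. Those fits rest on 3 lines each, and their shares over all probe sets were not computed. The counts therefore do not compare the kinds of lymphoma.

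**Figure D1:**
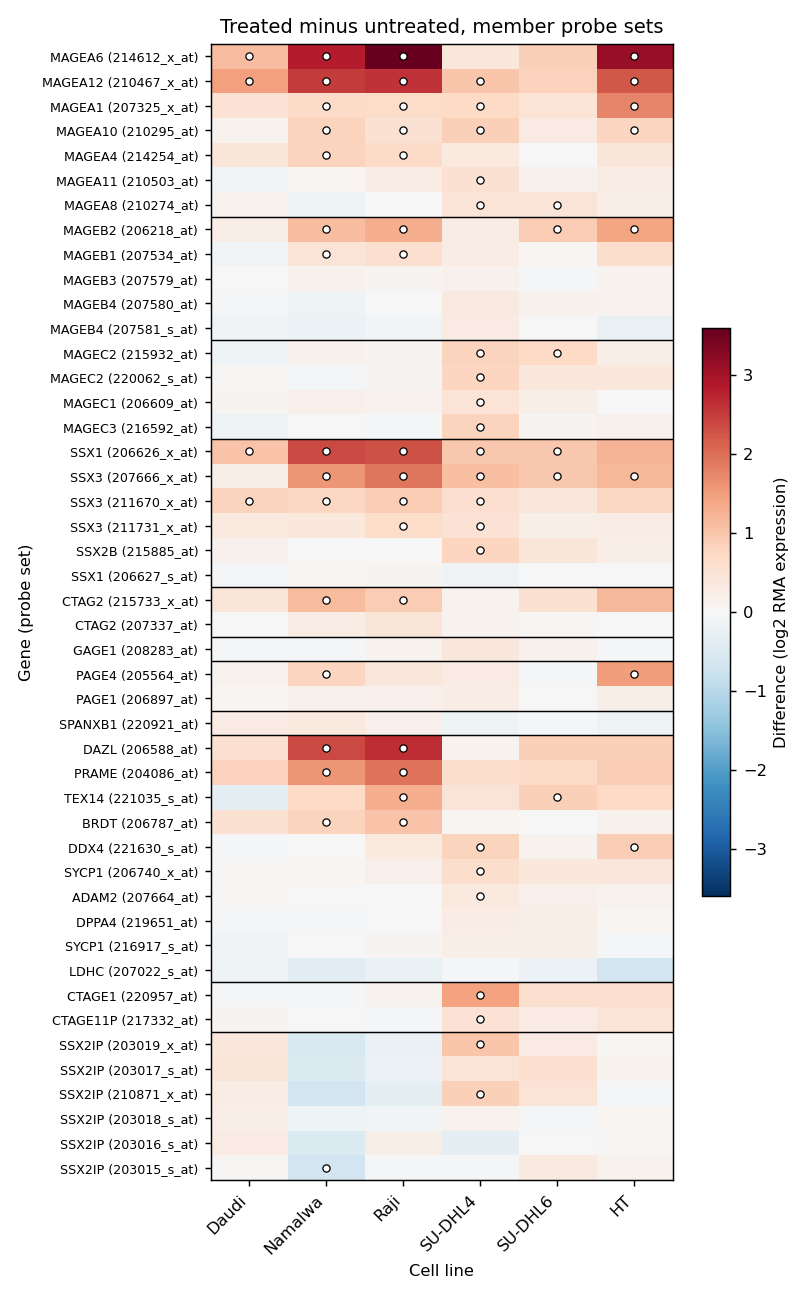
Treated minus untreated log2 RMA expression of the 46 member probe sets (rows, grouped by family) in each of the 6 lines (columns), as differences of group means. White points mark an adjusted p under 0.05 in that line. The deepest red lies in MAGEA6, MAGEA12, SSX1 and DAZL in Namalwa and Raji and in MAGEA6 and MAGEA12 in HT, while SU-DHL4 shows many small called differences.

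In the MAGEA family 5 of 7 probe sets were called higher over the lines, against 15.6% of all probe sets. Each of the 7 was called higher in at least 1 line, as were 45% of all probe sets. MAGE-A proteins are cytosolic and nuclear proteins that bind RING-type ubiquitin ligases, and peptides of them were among the earliest tumour antigens found with T cells. MAGEA6, on probe set 214612_x_at, had the largest difference of all members. In untreated cells its level was 4.53 and 4.32 in Daudi, 4.53 and 4.56 in Namalwa, 4.52 and 4.38 in Raji, 4.55 and 4.44 in SU-DHL4, 4.50 and 4.52 in SU-DHL6 and 4.45 in HT. In treated cells it was 6.11 and 4.96 in Daudi, 7.01 and 7.70 in Namalwa, 8.46 and 7.65 in Raji, 4.90 and 4.91 in SU-DHL4, 5.40 and 5.37 in SU-DHL6 and 7.60 in HT. Every treated array lay above every untreated one, and the treated levels themselves ran from 4.90 in SU-DHL4 to 8.46 in Raji. The mean difference was 1.99 ± 1.35 (SD over 6 lines; limma adjusted p = 0.0145), higher in 6 of 6 lines. All 11 untreated arrays, and 2 of the 11 treated ones, were at or below their 10th percentile.

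MAGEA12, on 210467_x_at, lay between 4.75 and 5.29 on untreated arrays, with a median of 4.96, and between 5.78 and 8.50 on treated ones, with a median of 6.49. The treated and untreated arrays did not overlap. The difference was 1.78 ± 0.78 (SD over 6 lines; limma adjusted p = 0.00294). It exceeded 2 in Namalwa, Raji and HT and was smallest in SU-DHL6, at 0.84 with an adjusted p of 0.126 there in limma. MAGEA1, which gave its name to the family, rose by 0.81 ± 0.48 and MAGEA10 by 0.56 ± 0.29, again with no overlap of treated and untreated arrays. The gaps were narrow, from 4.97 untreated to 5.04 treated in MAGEA1 and from 6.08 to 6.11 in MAGEA10. The share of all probe sets without such overlap was not computed. The MAGEA1 call was lost with the narrow-spread arrays left out (limma adjusted p = 0.0521). MAGEA4 rose by 0.45 ± 0.27 from untreated levels of 4.20 to 4.51, all at or below the 10th percentile, to 4.44 to 5.53, and these ranges overlapped. The call of MAGEA4 was lost without Namalwa (adjusted p = 0.0557) and without Raji (0.0548), and with each array centred on its median (0.0571). MAGEA8 and MAGEA11 gave 0.19 and 0.21, with no call over the lines.

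The MAGEB family was split. MAGEB2, MAGEB3, MAGEB4 and MAGEB1 follow each other on the X chromosome with no other protein-coding gene between them in RefSeq, and only MAGEB2 was called over the lines. MAGEB2 lay between 4.74 and 5.09 untreated, with a median of 4.93, and between 4.89 and 6.69 treated, with a median of 5.87. The ranges overlapped through 1 treated SU-DHL4 array. Its difference was 0.88 ± 0.51 (SD over 6 lines; limma adjusted p = 0.0102), and it was called in Namalwa, Raji, SU-DHL6 and HT. MAGEB1 was called in Namalwa, at 0.46, and in Raji, at 0.62, and gave 0.32 ± 0.295 over the lines. MAGEB3 gave 0.07 ± 0.10, and both probe sets of MAGEB4 lay near 0, at 0.05 and -0.07. MAGEB3 and the MAGEB4 probe set 207580_at stayed at or below the 10th percentile on all 22 arrays.

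Promoter sequence is shown for these neighbours, and for MAGEA6, DAZL and SSX1 as members with large differences, because the treatment removes methylation from the C of CpG pairs. They were chosen after their values were seen. Each is the 250 bases before the annotated start from RefSeq (GRCh38.p14), written 5′ to 3′ on the transcribed strand in lower case, with every CpG in capitals. MAGEB2 has 15 CpGs (chrX:30215313-30215562, plus strand), MAGEB3 has 1 (chrX:30230407-30230656, plus strand) and MAGEB4 has 1 (chrX:30241750-30241999, plus strand). MAGEA6 has 15 (chrX:152769690-152769939, minus strand), DAZL 28 at the first of its 2 listed starts (chr3:16605424-16605673, minus strand) and SSX1 only 3 (chrX:48255142-48255391, plus strand).
MAGEB2: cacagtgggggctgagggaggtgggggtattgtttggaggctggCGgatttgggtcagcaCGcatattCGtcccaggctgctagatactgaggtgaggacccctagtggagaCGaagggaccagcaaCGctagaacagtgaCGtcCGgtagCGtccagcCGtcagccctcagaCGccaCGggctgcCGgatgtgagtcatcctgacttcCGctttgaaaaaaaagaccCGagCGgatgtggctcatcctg
MAGEB3: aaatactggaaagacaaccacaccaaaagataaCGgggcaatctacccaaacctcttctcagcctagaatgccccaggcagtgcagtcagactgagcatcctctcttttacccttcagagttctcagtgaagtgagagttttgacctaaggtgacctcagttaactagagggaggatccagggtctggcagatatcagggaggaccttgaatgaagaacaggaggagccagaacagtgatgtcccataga
MAGEB4: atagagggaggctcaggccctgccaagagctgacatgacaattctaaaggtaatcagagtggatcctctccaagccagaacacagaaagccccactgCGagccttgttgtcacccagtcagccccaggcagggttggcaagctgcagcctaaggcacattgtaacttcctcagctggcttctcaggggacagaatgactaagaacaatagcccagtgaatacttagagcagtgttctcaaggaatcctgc
MAGEA6: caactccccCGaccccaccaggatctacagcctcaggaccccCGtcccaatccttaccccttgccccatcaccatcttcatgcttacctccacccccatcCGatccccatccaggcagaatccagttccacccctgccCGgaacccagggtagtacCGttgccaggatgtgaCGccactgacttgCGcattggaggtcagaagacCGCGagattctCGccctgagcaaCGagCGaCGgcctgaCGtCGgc
DAZL: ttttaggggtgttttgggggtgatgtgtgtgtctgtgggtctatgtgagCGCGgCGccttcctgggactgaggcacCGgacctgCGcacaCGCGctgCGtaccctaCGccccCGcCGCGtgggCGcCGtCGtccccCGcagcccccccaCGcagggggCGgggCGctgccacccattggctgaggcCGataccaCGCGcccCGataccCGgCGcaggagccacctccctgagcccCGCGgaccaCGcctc
SSX1: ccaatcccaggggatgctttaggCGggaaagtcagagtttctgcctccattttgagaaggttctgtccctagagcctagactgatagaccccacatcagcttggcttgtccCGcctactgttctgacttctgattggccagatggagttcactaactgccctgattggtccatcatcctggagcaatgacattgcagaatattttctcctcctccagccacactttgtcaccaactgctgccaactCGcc

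Chromosome 8, where ADAM2 lies, was left out of the promoter search. A match was found for 27 of the 34 genes, with 39 promoters in all. Their median was 8 CpGs in 250 bases, against 11 over all 35116 promoters in the table. Taking each gene's most CpG-rich start, the 7 matched genes called over the lines had a median of 14 CpGs (3 to 28), and the 20 matched genes not called had 8 (0 to 26). These ranges overlap widely: SSX1, with 3 CpGs, was called, whereas SSX2IP has 26, LDHC 17 and MAGEA11 18, and none of these was called higher. Within the MAGEB cluster MAGEB1 has 1 CpG at one start and 13 at the other. The medians rest on the choice of start. At their least CpG-rich starts the called genes MAGEA12, MAGEA4, PRAME and DAZL had 5, 6, 4 and 23 CpGs. With that start taken for every gene, the median of the called genes is not the higher one. The motif CGGAAG, the core of ETS factor sites, which are known to drive MAGEA promoters, was searched on both strands. It occurs in 5 of the 39 promoters (12.8%), of PRAME, MAGEB2 and MAGEA4, against 16.5% of all promoters. Methylation itself was not measured on these arrays.

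The SSX family encodes nuclear proteins that repress transcription and are known from the SS18-SSX fusion of synovial sarcoma. Of its 6 probe sets 4 were called higher over the lines, against 15.6% of all probe sets. SSX1 on 206626_x_at was not at the dim end before treatment. Its untreated levels were 6.81 and 7.04 in Daudi, 6.68 and 6.40 in Namalwa, 6.42 and 6.28 in Raji, 6.51 and 6.38 in SU-DHL4, 6.43 and 6.65 in SU-DHL6 and 6.61 in HT. Treated levels were 8.38 and 7.52 in Daudi, 9.06 and 8.78 in Namalwa, 8.61 and 8.67 in Raji, 7.23 and 7.58 in SU-DHL4, 7.46 and 7.58 in SU-DHL6 and 7.84 in HT. All treated arrays lay above all untreated arrays, with Namalwa and Raji highest. The difference was 1.48 ± 0.67 (SD over 6 lines; limma adjusted p = 0.00356). The other SSX1 probe set, 206627_s_at, lay between 4.04 and 4.35 on all 22 arrays, at or below the 10th percentile on each, and its mean difference was -0.00 ± 0.08. The 2 probe sets of the same gene therefore disagree, and which transcript 206626_x_at reads was not tested.

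The SSX3 probe sets, all ending in _x_at, rose by 1.16 ± 0.59, 0.71 ± 0.18 and 0.40 ± 0.17. The smallest of them, 211731_x_at, was lost under cyclic loess normalization (adjusted p = 0.0966) and with the 3 narrow-spread arrays and the rest of SU-DHL4 left out (0.0776). SSX2B gave 0.27 ± 0.30 and was called in SU-DHL4 alone, at 0.78. CTAG2, a homologue of NY-ESO-1, also split by probe set. On 215733_x_at it rose by 0.72 ± 0.42 (limma adjusted p = 0.0111; 0.0562 under cyclic loess), from 6.15 to 6.65 untreated to 6.35 to 7.62 treated, and on 207337_at it gave 0.14 ± 0.18.

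**Figure D2:**
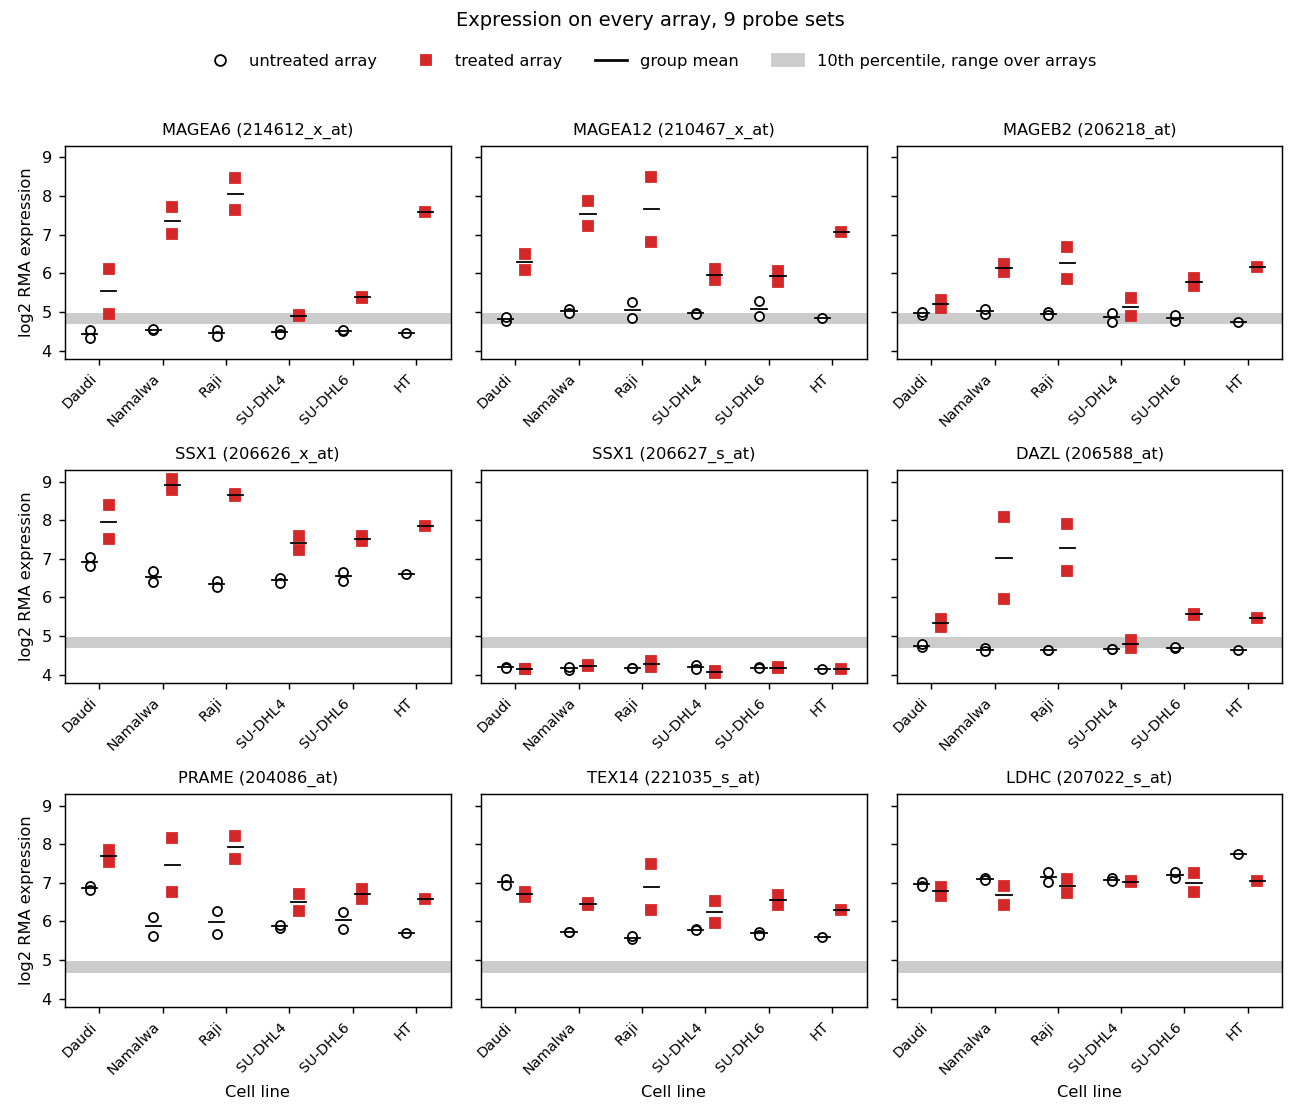
Log2 RMA expression of 9 probe sets on every array, by line; open circles are untreated and red squares treated arrays, short lines are group means, and the grey band spans the 10th percentiles of the 22 arrays. MAGEA6 and DAZL start at or below the band, and their treated levels are highest in Raji, Namalwa and, for MAGEA6, HT, SSX1 starts above it on one probe set and stays below it on the other, and TEX14 in Daudi starts high and does not rise.

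PRAME, an autosomal antigen of melanoma and other tumours that binds a ubiquitin ligase and retinoic acid receptors, lay above the dim end before treatment. Untreated levels were 6.91 and 6.80 in Daudi, and 5.63 to 6.27 on the other arrays. Treated levels were 7.84 and 7.55 in Daudi, 8.17 and 6.77 in Namalwa, 7.63 and 8.22 in Raji, 6.28 and 6.72 in SU-DHL4, 6.58 and 6.85 in SU-DHL6 and 6.59 in HT. Within every line the treated arrays lay above the untreated ones, although untreated Daudi reached the levels of several treated lines. The difference was 1.10 ± 0.54 (SD over 6 lines; limma adjusted p = 0.00527), and it was past the test in the single lines Namalwa, at 1.59, and Raji, at 1.95. The call over the lines held under all 38 alternative settings run, with differences of 0.73 to 1.46.

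Among the listed germ-line genes 3 of 10 probe sets were called higher over the lines (30%, against 15.6% of all probe sets), those of PRAME, DAZL and TEX14. DAZL encodes an RNA-binding protein needed for the making of germ cells. Untreated levels were 4.61 to 4.79 on all arrays. Treated levels were 5.44 and 5.23 in Daudi, 5.96 and 8.08 in Namalwa, 7.91 and 6.67 in Raji, 4.70 and 4.89 in SU-DHL4, 5.55 and 5.57 in SU-DHL6 and 5.47 in HT. The treated arrays of Namalwa and Raji were highest, those of Namalwa lay far apart, and 1 treated SU-DHL4 array lay within the untreated range. The mean difference was 1.24 ± 1.03 (SD over 6 lines; limma adjusted p = 0.0302), and it was called in Namalwa, at 2.38, and Raji, at 2.66. The call was lost under 10 of 38 alternatives. Without Namalwa the adjusted p was 0.0721, without Raji 0.0579, without SU-DHL6 0.0618 and without HT 0.0533.

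TEX14, a protein of the bridges between germ cells, was a member whose untreated level differed among lines. Daudi had 7.09 and 6.95 untreated and 6.77 and 6.64 treated, a difference of -0.32. The other untreated arrays lay between 5.54 and 5.80, and the other treated arrays between 5.96 and 7.48. Across all lines its difference was 0.62 ± 0.54 (limma adjusted p = 0.0411), above 0 in every line but Daudi. That call was lost under 15 of 38 alternatives, among them each array centred on its median (0.0856) and the removal of Namalwa (0.0901), Raji (0.0896), SU-DHL4 (0.0721), SU-DHL6 (0.110) or HT (0.0897).

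BRDT, a bromodomain protein of spermatocytes, was called in Namalwa, at 0.79, and Raji, at 1.02, and gave 0.43 ± 0.42 over the lines (limma adjusted p = 0.0626). DDX4, the germ-line helicase VASA, was called in SU-DHL4, at 0.81, and in HT, at 0.90. SYCP1, which forms the transverse filaments of the synaptonemal complex in meiosis, gave 0.28 ± 0.23 on 206740_x_at and 0.05 ± 0.15 on 216917_s_at. DPPA4, a factor of pluripotent and germ cells, gave 0.08 ± 0.14. ADAM2, a sperm surface protein, gave 0.12 ± 0.13, with all 22 arrays at or below the 10th percentile. LDHC, the lactate dehydrogenase of sperm, was the one member lower in all 6 lines. It lay between 6.91 and 7.74 untreated and between 6.44 and 7.25 treated, overlapping, with a difference of -0.30 ± 0.23 (SD over 6 lines; limma adjusted p = 0.0535). Median centring of the arrays gave an adjusted p of 0.0177 in limma.

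The remaining X-linked families gave no call over the lines. Of the 4 MAGEC probe sets 4 were called in SU-DHL4, with differences of 0.50 to 0.82, where 34.3% of all probe sets were called higher, and 1 in SU-DHL6, where 14.1% were. In the other lines none was called. PAGE4, which is expressed in prostate, placenta and testis, was called in HT, at 1.49, and in Namalwa, at 0.78, and gave 0.51 ± 0.55 over the lines. PAGE1, GAGE1 and SPANXB1, the last a sperm nuclear protein, gave 0.15, 0.08 and 0.06 and were called in no line. CTAGE1 was called in SU-DHL4 alone, at 1.44, and CTAGE11P there too, at 0.53. The 6 SSX2IP probe sets gave -0.05 to 0.16 over the lines. One of them, 203015_s_at, was the only member called lower in any line, by -0.68 in Namalwa.

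**Figure D3:**
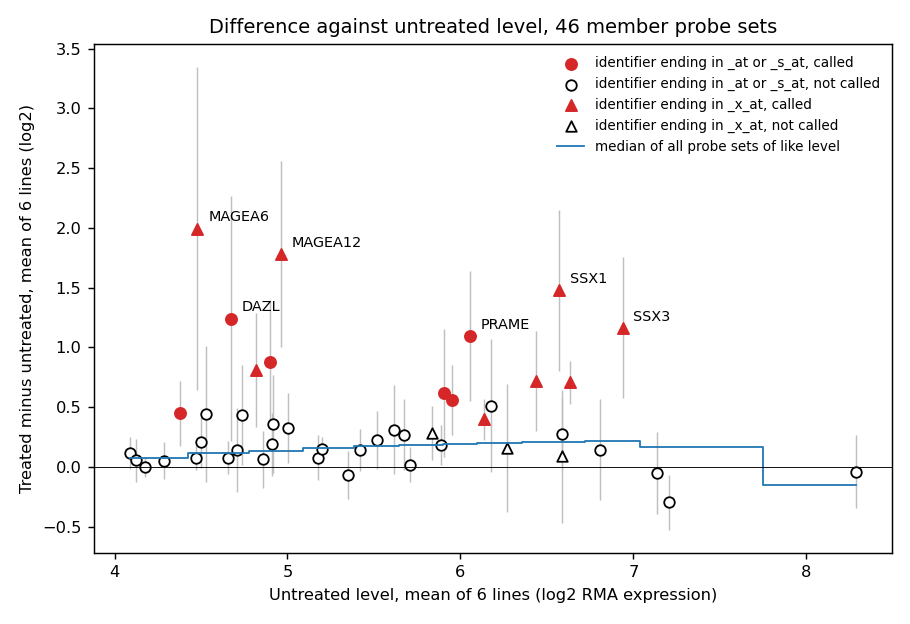
Mean treated minus untreated difference over the 6 lines (vertical axis, log2, grey bars are the SD over lines) against the mean untreated level (horizontal axis, log2 RMA expression) of the 46 member probe sets. Red marks an adjusted p under 0.05, triangles mark identifiers ending in _x_at, and the blue line is the median difference of all probe sets in the same one of 20 bins of untreated level. The 14 called probe sets lie above the line, at untreated levels from 4.38 to 6.94.

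Many members began low on the array. At the 10th percentile, 8 members were at or below it on all untreated arrays and 5 on all treated ones, which is 17.4% and 10.9% of members against 6.9% and 5.7% of all probe sets. At the 25th percentile these counts were 23 and 15, which is 50% and 32.6% of members against 18.8% and 16.6%. Of the 8, MAGEA6 and MAGEA4 were called higher, and DPPA4, ADAM2, MAGEB3 and the second probe sets of SYCP1, MAGEB4 and SSX1 were not. The median difference of all probe sets varied with untreated level and line. In the dimmest of 20 bins of untreated level it was 0.01 to 0.02 in the Burkitt lines and 0.10 to 0.21 in the DLBCL lines. Over the lines it was 0.07 at the level of MAGEA4 and 0.22 at that of SSX3 on 207666_x_at. Each difference was therefore also set against the median of probe sets of like untreated level, as a description. By that measure MAGEA6 stood 1.88 above, MAGEA12 1.64, SSX1 1.27, DAZL 1.13, PRAME 0.90 and MAGEB2 0.75. MAGEA10 stood 0.37 above, SSX3 on 211731_x_at 0.20 and SYCP1 on 206740_x_at 0.10. Over all 46 members the median by that measure was 0.09. It was 0.51 for members on _x_at probe sets and 0.05 for the other members. Some members lay below, among them LDHC at -0.47 and MAGEB4 on 207581_s_at at -0.23.

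The calls were unevenly spread over kinds of probe set. Of the 11 members on _x_at probe sets 8 were called over the lines, with a median difference of 0.72, and of the other 35 members 6 were called (17.1%), with a median of 0.18, close to the 15.6% and 0.10 of all probe sets. A further 24 probe sets, left out by the rule because they are annotated to several genes of which 1 or more is in these families, were higher in 19 cases, with a median of 0.81. How far shared probes carry 1 transcript's signal into several probe sets was not tested. DAZL, PRAME, MAGEB2, TEX14, MAGEA10 and MAGEA4 were the 6 called on other probe sets. Of the 28 X-linked members 11 were called (39.3%), with a median of 0.29, and of the 18 autosomal ones 3 (16.7%), with a median of 0.15. The autosomal share was near the 15.6% of all probe sets. The 8 called _x_at probe sets are all X-linked, and of the 6 others called MAGEB2, MAGEA10 and MAGEA4 are X-linked. The 18 autosomal members include the 6 probe sets of SSX2IP. Chromosome and kind of probe set were therefore not separated by these shares.

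**Figure D4:**
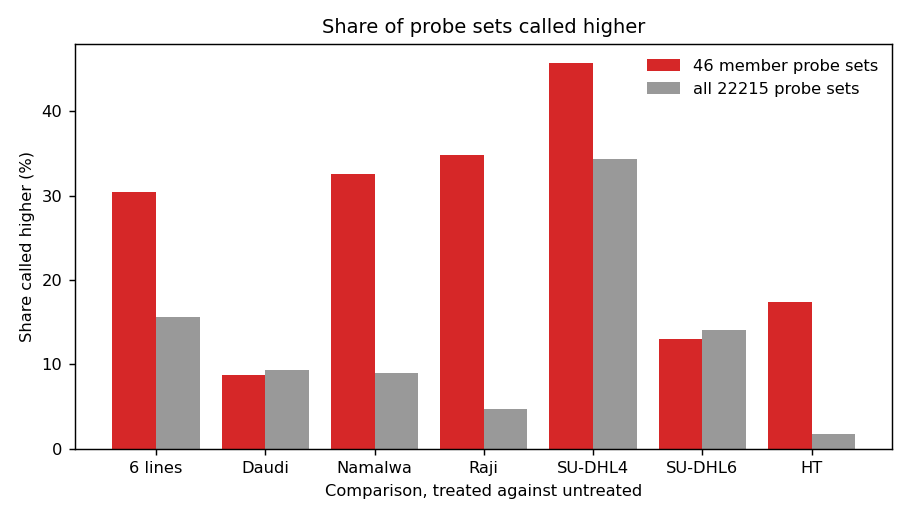
Share of the 46 member probe sets (red) and of all 22215 probe sets (grey) called higher, over the 6 lines and in each line, in percent, by limma at an adjusted p under 0.05. Members exceed the background most in Raji (34.8% against 4.75%), Namalwa (32.6% against 9.04%) and HT (17.4% against 1.73%), and not in Daudi or SU-DHL6.

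Line by line the members fell into different patterns. Raji had 16 members higher, against a background of 4.75%, and Namalwa 15, against 9.04%, of which 14 were shared; that is 87.5% of the Raji calls and 93.3% of the Namalwa calls, where over all probe sets the shared calls were 64.5% and 33.9%. In Namalwa 1 member was lower, where 11.7% of all probe sets were. Limma called 0 members lower in Daudi, Raji, SU-DHL4, SU-DHL6 and HT, against 8.79%, 8.17%, 22.3%, 14.2% and 2.17% of all probe sets. HT had 8 higher against 1.73%. With 1 array a group in HT, every HT test takes its spread from the duplicates of the other lines and assumes that HT varies like them. In these 3 lines the largest difference was MAGEA6, at 3.61 ± 0.32 in Raji (SE), 2.82 ± 0.32 in Namalwa and 3.14 ± 0.46 in HT. Without the first treated Raji array Raji had 8, and without the first untreated Namalwa array Namalwa had 9.

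Daudi had 4 members higher, MAGEA12, MAGEA6, SSX1 and SSX3 on 211670_x_at, at a background of 9.33%. All 4 were on _x_at probe sets. SSX3 on 207666_x_at was above 0 in all 6 lines and called higher in 5, but not in Daudi. Without the first treated Daudi array none was called, and without either untreated Daudi array at most 1. SU-DHL6 had 6 higher at a background of 14.1%, with none reaching 2-fold and SSX1 largest, at 0.98. That count was 1 without its first untreated array, 2 without its second treated array and 12 without its first treated array. In both lines the share of members was near that of all probe sets.

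SU-DHL4 had the most calls, 21 of 46, but also the highest background, 34.3%. The median of its 21 called differences was 0.78, against 1.16 in Raji, and 4 of them reached 2-fold, against 9 of 16 in Raji. Set against probe sets of like level, the median over the 21 was 0.38. Under cyclic loess normalization, chosen after seeing the data, 6 members were higher and 2 lower there. SU-DHL4 and Raji shared 7 member calls, 33.3% of those in SU-DHL4 and 43.8% of those in Raji, where over all probe sets they shared 6.61% and 47.7%. Calls not shared included all 4 MAGEC probe sets, CTAGE1, DDX4 and SSX2B, while MAGEA6 (0.42), DAZL (0.13) and MAGEB2 (0.27) were not called in SU-DHL4. The narrow spread of its treated arrays moves with these small differences, and its part in them was not tested.

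The effect differed among the 6 lines for 9 members by limma's F test (19.6%), near the background of 17.9%. Tested line against the mean of the other 5, MAGEA6 was 1.94 higher in Raji (adjusted p = 0.0152; 1.44% of all probe sets were above in that contrast) and SSX1 was 1.08 higher in Namalwa (0.0399; 1.94%). SSX3 on 207666_x_at was lower in Daudi, with a contrast of -1.14 (adjusted p = 0.0251; 0.558%), and PAGE4 was 1.18 higher in HT (0.0479; 0.23%). In SU-DHL4 the contrast was -1.89 for MAGEA6 (adjusted p = 0.00308) and -0.74 for MAGEB2 (0.0428), where 11.4% of all probe sets were below. It was 1.20 for CTAGE1 and 0.80 for MAGEC3, where 16% were above. In the remaining contrasts limma called 0 members, against 1.38% of all probe sets above in Daudi, 0.581% below in Namalwa, 0.792% below in Raji, 0.428% above and 0.896% below in SU-DHL6, and 0.288% below in HT.

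Between the kinds of lymphoma no member passed. Limma on the 6 line differences called 0 of 46, and 1 of all 22215 probe sets (0.0045%). In simulation this comparison found only 18 of 100 shifts of size 1, against 85 of 100 of size 2. The absence of calls therefore does not show that Burkitt and DLBCL lines respond alike. At an unadjusted p under 0.05, 10 members (21.7%) stood against 11.9% of all probe sets. PRAME rose by 1.46 in the Burkitt and 0.73 in the DLBCL lines, a difference of 0.73 (adjusted p = 0.420), and BRDT by 0.79 and 0.08 (0.417). MAGEC2 and SSX2B, also among the 10, were higher in the DLBCL lines, at 0.04 and 0.05 in the Burkitt lines against 0.58 and 0.49 in the DLBCL lines on 215932_at and 215885_at. In untreated cells 4 members differed among the lines by limma's F test, against 17.5% of all probe sets: TEX14 and 3 probe sets of SSX2IP.

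Across the 6 line differences, the members most like PRAME were DAZL (Pearson r = 0.97), SSX1 on 206626_x_at (0.96) and BRDT (0.92). The members most like MAGEA6 were MAGEA12 (0.95), CTAG2 on 215733_x_at (0.90) and MAGEB2 (0.86). These values describe 6 points that share arrays and normalization, and were chosen as the highest among the members.

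Related genes outside the rule gave a background for the families. The ubiquitous MAGE genes, which lack the cancer-testis pattern, had 0 of 11 probe sets called in either direction by limma, and a median of 0.11. At an unadjusted p under 0.05, 2 of them were higher (18.2%), against 26.1% of all probe sets. Of 27 probe sets of other cancer-testis and germ-line genes 9 were higher (33.3%, against 15.6% of all probe sets), with a median of 0.17. Among them CABYR, a sperm tail protein, rose by 0.79 ± 0.35 and PLAC1, a placental protein, by 0.68 ± 0.43. Genes of spermatids, the last stage of sperm formation, had 1 of 28 higher (3.57%, against the same 15.6%), ODF1 at 0.41 ± 0.31. Of 10 probe sets of cancer-testis genes that act in cell division 4 were lower over the lines, against 16.7% of all probe sets, but the lines differed. Their median was -2.07 in SU-DHL4, 0.08 in Daudi and 0.01 in Raji. Those lower included the mitotic kinase PBK, by -2.69 ± 1.45, and OIP5, which helps to mark centromeres, by -1.04 ± 0.65. Of 32 probe sets of the silencing machinery 14 were lower (43.8%) and 4 higher (12.5%), against 16.7% and 15.6% of all probe sets. They included DNMT1, the maintenance DNA methyltransferase, at -1.50 ± 0.79, and CTCF, an insulator protein, at -2.15 ± 0.90.

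Markers of other cell types were also read. The 5 T-cell genes had mean levels of 6.81 to 6.93 on untreated and 6.99 to 7.79 on treated arrays, with 2 of 5 probe sets called higher, CD3D at 0.41 and CD3E at 0.40, and none of the 5 genes was at or below the 25th percentile on every untreated array. Myeloid, fibroblast and epithelial lists had mean levels of 5.23 to 5.92, 6.97 to 7.75 and 5.18 to 5.56 on untreated arrays, and 5.43 to 5.91, 7.02 to 7.78 and 5.36 to 6.02 on treated ones. Of their probe sets 1 of 6, 1 of 14 and 1 of 4 were called higher, and 1 of 5, 1 of 4 and 2 of 4 genes were at or below the 25th percentile on every untreated array. Over the lines 15.6% of all probe sets were called higher. The part of these markers in the members' differences was not tested.

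The authors' deposited table, whose log2 differences equal treated minus untreated means over the arrays, holds 27 members higher and 1 lower at its adjusted p under 0.05. The share of all probe sets called in that table was not computed, so these counts have no background. The log2 differences of that table weigh the 22 arrays and not the 6 lines equally. Its column headers do not name the model behind the p-values, and its calls share these arrays.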

How the data were processed

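RNA was measured on 22 arrays. The deposited values are log2 expression made by RMA with R 2.10.1, per the submitters' processing notes. The authors' deposited table also holds log2 differences with p-values, used only where named. The 68 control probe sets were left out of 22283. Symbols came from the platform annotation, in which 19065 probe sets have 1 symbol, 1043 several and 2107 none.

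Treated minus untreated was fitted for all 22215 probe sets with limma 3.58.1 in R 4.3.3. Over the lines the fit used the 12 line means with line as a block. Within lines, and for differences among lines and each line against the other 5, it used the 22 arrays as 12 groups. Burkitt and DLBCL lines were compared on 6 line differences. P-values were adjusted by Benjamini-Hochberg over all probe sets, and called means an adjusted p under 0.05. The labels do not state whether duplicates are separate cultures, so within-line p-values may measure technical spread, and the number of arrays limits the precision. No array columns went unused. In simulated data, of 100 probe sets changed by 1 and 100 by 2 on the log2 scale the fit over the lines recovered 81 and 98, with 7 false calls. The simulated effects varied less between lines than the measured ones, so that recovery may be too high. Within lines with duplicates 64 to 66 and 94 to 98 were recovered. With a change in Raji alone, the F test among lines recovered 14 and 80, and Raji against the other 5 recovered 53 and 92. Burkitt against DLBCL recovered 18 and 85.

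The members, lists and tests were chosen with earlier results of these data known. Values are given for every member called over the lines, the 3 largest called in each line, the listed genes, their other probe sets and the likest members. Same-numbered arrays did not deviate together (correlations of -0.138 to 0.0273 over 5 lines), so numbers were not taken as pairs. Alternatives were median centring, quantile and cyclic loess scaling, filters on dim probe sets, 1 probe set per gene, leaving out arrays or lines, each kind of lymphoma alone, the arrays as units, and a replicate block.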

Additional observations from a re-analysis of the deposited data

Results flagged for a closer look

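MAGEA1 in HT, with a difference of 1.77, stood apart from the other 5 lines, of which the nearest had 0.73. MAGEC3 in SU-DHL4, at 0.81, stood apart likewise, with the nearest line at 0.17. Chance alone marks about 1 in 20 such groups, and 46 were looked at.

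For 11 members the effect in 1 line differed from the mean effect of the other 5 by limma at an adjusted p under 0.05. MAGEA6 was 1.94 above in Raji and at -1.89 in SU-DHL4, and SSX1 was 1.08 above in Namalwa. SSX3 on 207666_x_at was at -1.14 in Daudi and PAGE4 was 1.18 above in HT. In SU-DHL4, CTAGE1 was 1.20 above, SSX2IP 1.02 and 0.91 above on 203019_x_at and 210871_x_at, MAGEC3 0.80, DDX4 0.54 and MAGEC1 0.38 above, and MAGEB2 at -0.74. The narrow spread of the treated SU-DHL4 arrays moved with these values, and its part in them was not tested.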

How the results depend on the processing

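Counts here take members called in either direction, which makes 16 in Namalwa (15 higher and 1 lower). The count of 14 over the lines was 6 with the Burkitt lines alone, 3 with the DLBCL lines alone, 28 with the 22 arrays as units, 24 with the replicate block and 6 without _x_at probe sets. It was 11 to 16 with 1 array or line left out. For the alternatives that refit the data, the share over all probe sets was not computed. Without _x_at probe sets the counts were 0 in Daudi, 9 in Namalwa, 8 in Raji, 12 in SU-DHL4, 4 in HT, 5 for the difference among lines and 6 for 1 line against the others. The replicate block gave 3 in HT, 3 for the difference among lines and 5 for 1 line against the others. HT had 5 under quantile scaling, 1 line against the others 7 with probe sets at or below the 25th percentile removed, and untreated differences 2 with 1 probe set per gene and 1 without SSX2IP. Cyclic loess, added after seeing the data like the removal of SSX2IP and _x_at probe sets, gave 8 in SU-DHL4 and 3 in SU-DHL6. At the 25th percentile 23 members, not 8, were at the dim end.

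With 1 array left out the counts were 0 to 6 in Daudi, 9 to 17 in Namalwa, 8 to 16 in Raji, 15 to 25 in SU-DHL4, 1 to 12 in SU-DHL6, 6 to 9 in HT, 4 to 15 among lines, 5 to 22 for 1 line against the others, 3 to 4 for untreated levels and 0 to 0 between the kinds of lymphoma. The difference among lines was 5 without the second treated Daudi or SU-DHL4 array, 4 without the second untreated array of either, 14 without the second treated Raji array and 15 without the first treated SU-DHL6 array. For 1 line against the others the count was 22 without the second treated SU-DHL6 array, 5 to 7 without any SU-DHL4 array, 6 without the second untreated Daudi array and 7 without the second untreated Namalwa array. Raji had 9 and 10 without its first and second untreated array. Namalwa numbers, crossed in the block after seeing a correlation of -0.138, gave 16 members there. Leaving out either HT array is the same as leaving out HT, and HT itself cannot be tested without one.

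The sign turned for SYCP1, DPPA4 and SSX1 on 1 probe set each and for the 6 SSX2IP probe sets, none of them called over the lines. On SSX2IP it turned under 2 to 8 alternatives a probe set, with values from -0.249 to 0.450. SYCP1 on 216917_s_at gave -0.0440 with median centring, -0.0198 with quantile scaling, -0.0231 with the Burkitt lines alone, -0.0209 with cyclic loess and -0.00529 without the narrow-spread arrays. DPPA4 gave -0.0213 with centring, -0.0248 with quantile scaling, -0.0198 with cyclic loess and -0.0348 with the Burkitt lines alone. SSX1 on 206627_s_at gave 0.0431 with the Burkitt lines alone, 0.0227 without the narrow-spread arrays, and -0.0197 to 0.0247 with 1 array or line left out. The causes were not tested.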
